A study of Rattus norvegicus with 40 samples.

Results

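The transcript ENSRNOT00000028546.5, 1 of 31715 transcripts listed in every sample, was followed across 4 tissues of rats that carry 1 disrupted copy of Tti2. It was chosen by its genotype difference in an earlier analysis of these same data, in which it was higher in liver and soleus muscle of SHR-Tti2+/- rats than in those of wild-type rats, so the differences in these 2 tissues are described here without a test. Measures that do not rest on that difference were examined as well, namely the level in fat and hippocampus, the variation between rats of one genotype, and the transcripts that varied along with it. The files give this transcript a length of 1702 bases. They pair no transcript with a gene name, and the reference gene table matched 0 of the identifiers, so the gene behind it and its function are not named here.

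All rats were of the inbred strain SHR/OlaIpcv, the spontaneously hypertensive rat. The wild-type group consisted of littermates, and the SHR-Tti2+/- group was heterozygous for a small frameshift deletion in the first exon of Tti2, made with zinc-finger nucleases and carried by a single line. The labels name no treatment for either group, and the metabolic tests on this line used three-month-old males. Messenger RNA was sequenced from the liver, the soleus muscle, the perirenal fat, which the labels call peritoneal, and the hippocampus, 5 from each genotype in every tissue, which makes 40. These were taken from 12 rats, 6 per genotype, and most rats gave several tissues. Rat numbers are counted separately in the 2 genotypes, so wild-type rat 2 and SHR-Tti2+/- rat 2 are different animals.

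The product of Tti2 belongs to the TTT complex, named after its members Telo2, Tti1 and Tti2, on which the stability of the large kinases called PIKKs depends. The PIKKs include mTOR, which couples growth to nutrients, ATM and ATR, which respond to DNA damage, SMG1, which acts in the decay of faulty messenger RNA, and TRRAP, a scaffold of chromatin-modifying complexes. A heterozygous rat retains 1 intact copy of the gene in every cell.

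Levels are given as TPM, the deposited unit, in which counts are divided by transcript length and then by the sum over all transcripts of a library, and as CPM, in which counts are scaled to library size by TMM normalization within a tissue. The libraries held between 19176393 and 32713126 estimated counts. The transcript took between 217 estimated counts, in a wild-type liver, and 5059, in an SHR-Tti2+/- fat sample. Estimated counts can include reads that match several transcripts, and the number of reads that match this one alone is not given. Markers of the tissues could not be checked without gene names. In bulk tissue, a change in the number of cells of a type cannot be told apart from a change in RNA per cell, and this holds for every value below.

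The liver had the lowest level in wild-type rats and the widest gap between the genotypes. TPM in wild-type liver was 4.96 in rat 1, 6.38 in rat 2, 6.64 in rat 4, 7.99 in rat 5 and 5.15 in rat 6. In SHR-Tti2+/- liver it was 20.4 in rat 1, 26.8 in rat 2, 48.6 in rat 4, 39.2 in rat 5 and 34.8 in rat 6. All 5 SHR-Tti2+/- livers lay above all 5 wild-type livers, and the nearest samples of the groups were far apart, at 7.99 and 20.4. Of the 18423 liver transcripts tested, 1.28% had every SHR-Tti2+/- sample above every wild-type sample, and 1.28% had every one below. The level was 10.9 ± 2.41 CPM in wild-type rats (SD, n = 5) and 61.0 ± 21.4 CPM in SHR-Tti2+/- rats (SD, n = 5), a fold change of 5.59 in the edgeR fit with a 95% interval from 3.81 to 8.19. On the log2 scale this was 2.48 with a standard error of 0.25. The interval only describes the fit, since the transcript was chosen by its difference in this tissue. Such a choice can overstate a fold change. In that fit 0.103% of liver transcripts were called higher and 0.206% were called in either direction, where a call needs an adjusted p under 0.1 and 1.5-fold or more between the genotypes. In the order of all transcripts by TPM, this one stood between places 6351 and 8483 in wild-type livers and between places 1645 and 3351 in SHR-Tti2+/- livers.

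**Figure D1:**
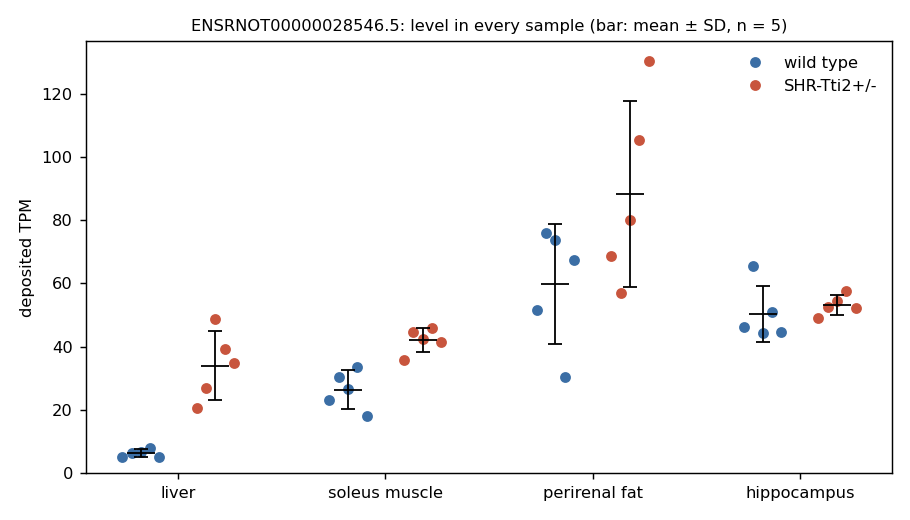
Deposited TPM of ENSRNOT00000028546.5 in each of the 40 samples, by tissue on the horizontal axis and by genotype in colour, with bars for the mean ± SD of 5 samples. The SHR-Tti2+/- samples lie above every wild-type sample in liver and soleus muscle, and the genotypes overlap in perirenal fat and hippocampus.

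In the soleus, a slow-twitch muscle of the hind leg, the gap was smaller and the groups were again separate. TPM in wild-type soleus was 23.2 in rat 2, 30.5 in rat 3, 26.6 in rat 4, 33.6 in rat 5 and 17.9 in rat 6. In SHR-Tti2+/- soleus it was 35.8 in rat 2, 44.5 in rat 3, 42.4 in rat 4, 45.8 in rat 5 and 41.3 in rat 6. The distance between the nearest samples of the 2 groups was small, since wild-type rat 5 at 33.6 lay just under SHR-Tti2+/- rat 2 at 35.8. Of the 18120 soleus transcripts tested, 0.8% had all SHR-Tti2+/- samples above all wild-type samples and 0.502% had all of them below. The level was 45.1 ± 10.6 CPM in wild-type rats (SD, n = 5) and 73.3 ± 7.48 CPM in SHR-Tti2+/- rats (SD, n = 5), a fold change of 1.62 with a 95% interval from 1.28 to 2.06. The log2 fold change was 0.70 with a standard error of 0.16. As in liver, the interval is only a description, since the soleus values also chose the transcript. No soleus transcript was called higher, and 0.00552% were called in either direction.

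Perirenal fat, a visceral depot around the kidney, had the highest mean level of the 4 tissues by TPM, and its samples spread over the widest range of TPM. TPM in wild-type fat was 51.5 in rat 1, 75.8 in rat 2, 73.8 in rat 3, 30.3 in rat 4 and 67.5 in rat 5. In SHR-Tti2+/- fat it was 68.6 in rat 1, 57.1 in rat 2, 79.9 in rat 3, 105 in rat 4 and 130 in rat 5. The groups overlapped, with 3 of 5 SHR-Tti2+/- samples above the highest wild-type sample and 2 of 5 wild-type samples below the lowest SHR-Tti2+/- sample. Complete separation occurred in 0.717% of the 20221 fat transcripts with SHR-Tti2+/- higher and in 0.598% with it lower. The mean was 89.3 ± 27.2 CPM in wild-type fat (SD, n = 5) and 131 ± 44.6 CPM in SHR-Tti2+/- fat (SD, n = 5). The fold change was 1.47 with a 95% interval from 0.97 to 2.22. It did not pass the test (log2 fold change 0.55, standard error 0.27, adjusted p = 0.747 by Benjamini-Hochberg, quasi-likelihood test of edgeR), and a two-sided exact permutation test over the samples gave p = 0.111. Of the fat transcripts, 0% were called in either direction by edgeR. The interval contains both no difference and the fold change seen in soleus.

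In the hippocampus the genotypes were closest. TPM in the wild-type hippocampus was 46.3 in rat 1, 65.6 in rat 2, 44.3 in rat 3, 51.0 in rat 5 and 44.6 in rat 6. In the SHR-Tti2+/- hippocampus it was 49.1 in rat 1, 52.4 in rat 2, 54.4 in rat 3, 57.6 in rat 4 and 52.2 in rat 5. The highest of all 10 samples was wild-type rat 2, so 0 of 5 SHR-Tti2+/- samples lay above every wild-type sample. Of the 20712 transcripts tested, 0.589% had all SHR-Tti2+/- samples above all wild-type samples and 0.594% had all of them below. The level was 65.0 ± 13.9 CPM in wild-type rats (SD, n = 5) and 68.0 ± 3.81 CPM in SHR-Tti2+/- rats (SD, n = 5), a fold change of 1.05 with a 95% interval from 0.866 to 1.26. The log2 fold change of 0.07 (standard error 0.12) did not pass the test, with an adjusted p = 0.950 by Benjamini-Hochberg in edgeR and p = 0.556 from the two-sided exact permutation test. In this tissue 0.00483% of transcripts were called in either direction and 0% were called higher.

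Of all 40 libraries that of wild-type rat 2 was the largest, with 32713126 estimated counts, and it lay farthest from the other hippocampus samples on the first principal components. Without it the 4 remaining wild-type samples averaged 59.0 ± 4.44 CPM (SD, n = 4), the highest of them was 64.3 CPM, and 4 of 5 SHR-Tti2+/- samples lay above that value. The log2 fold change in the hippocampus was then 0.20, with an adjusted p = 0.757 from edgeR and 0.291 from DESeq2. The size of the hippocampal difference thus moved with this single library, and it was not called with or without it.

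**Figure D2:**
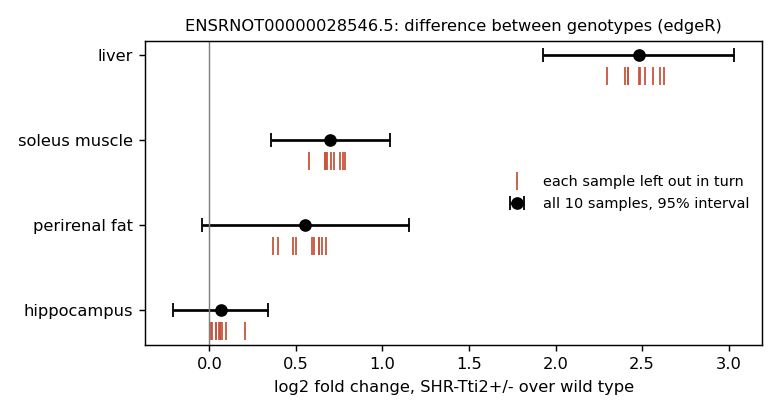
Log2 fold change of ENSRNOT00000028546.5, SHR-Tti2+/- over wild type, from the edgeR fit of each tissue (points, with 95% intervals as bars) and from the fits that left out each sample in turn (ticks). The intervals of perirenal fat and hippocampus include 0, those of liver and soleus muscle are a description since these tissues chose the transcript, and the ticks run from 2.30 to 2.63 in liver, from 0.58 to 0.78 in muscle and from 0.37 to 0.68 in fat.

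The mean was higher in SHR-Tti2+/- rats in each of the 4 tissues, by 2.48, 0.70, 0.55 and 0.07 on the log2 scale in liver, muscle, fat and hippocampus. Whether these differences were unequal between tissues was not tested, since the values in liver and muscle chose the transcript.

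The spread between rats of one genotype changed with tissue. The highest SHR-Tti2+/- sample was 2.38 times the lowest in liver and 2.28 times in fat, against 1.28 times in soleus and 1.17 times in hippocampus. In wild-type rats these ratios were 1.61 in liver, 2.50 in fat, 1.87 in soleus and 1.48 in hippocampus. Fat was thus uneven in both genotypes, whereas in the soleus the SHR-Tti2+/- rats lay closer together than the wild-type rats. In the hippocampus the wild-type ratio rested on rat 2, and the other 4 wild-type samples gave 1.15. Against other transcripts, the SD of log2 CPM in SHR-Tti2+/- liver, 0.52, was larger than that of 80.5% of those tested, and in SHR-Tti2+/- fat, at 0.48, it was larger than that of 79.7%. In SHR-Tti2+/- hippocampus the SD was 0.08, larger than that of only 26.1% of the transcripts, and in SHR-Tti2+/- soleus it was 0.15, larger than that of 35.5%. In wild-type rats these shares were 67.1% in liver, 79.9% in fat, 55.8% in hippocampus and 64.2% in soleus. The spreads of the genotypes were not tested against each other.

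The order of mean TPM was liver, soleus, hippocampus and fat in both genotypes. Soleus exceeded liver by 1.98 in log2(TPM + 0.5) in wild-type rats, without overlap of the samples, and by 0.36 in SHR-Tti2+/- rats, with overlap. These 2 steps are given without a test, since the gap between them restates the genotype differences in liver and soleus that chose the transcript. In wild-type rats hippocampus exceeded soleus by 0.94 without overlap (two-sided exact permutation test, adjusted p = 0.0159 over 6 comparisons). Fat exceeded hippocampus by 0.19 in wild-type rats, the samples overlapped, and the difference did not pass the test (exact permutation test, adjusted p = 0.46). In SHR-Tti2+/- rats hippocampus exceeded soleus by 0.34 with no overlap (exact permutation test, adjusted p = 0.0159), and fat exceeded hippocampus by 0.67 with overlap (exact permutation test, adjusted p = 0.0238). Groups of 5 allow no exact p below 0.00794, and the test ignores that tissues share rats. The steps from soleus to hippocampus also use the soleus values that chose the transcript, and the neighbours tested were set by the same means.

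This order depended on the scale. With counts normalized by TMM over all 40 samples, soleus lay above hippocampus, at 76.1 against 44.9 CPM in wild-type rats and 123 against 46.7 CPM in SHR-Tti2+/- rats. The log2 difference of hippocampus minus soleus was then -0.74 and -1.38, with exact permutation tests giving adjusted p = 0.0238 and 0.0159. Soleus was then the highest tissue in both genotypes, above fat at 64.8 CPM in wild-type and 95.1 CPM in SHR-Tti2+/- rats, and the SHR-Tti2+/- hippocampus lay below the liver at 88.8 CPM. The direction thus turned with the scaling of the tissues to each other. The effective length that the authors' software used to turn counts into TPM ran from 1812 to 1835 bases in hippocampus. In soleus it ran from 1980 to 2029 bases. Its part in the turn was not tested. The steps from liver to soleus and from hippocampus to fat kept their sign on both scales.

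Rats with a high level in liver for their genotype also had a high level in soleus. For the 8 rats sampled in both tissues, 4 of each genotype, each log2 CPM was taken as the deviation from the genotype mean of those rats, so that the genotype difference itself played no part. All 8 rats lay on the same side of that mean in both tissues, and 6 of 8 did so when the mean was taken over all 5 rats of a group. The deviations correlated with a Pearson r of 0.81 (exact permutation of rats within genotype, p = 0.00694, adjusted p = 0.0417 over 6 tissue pairs) and a Spearman rho of 0.83 (exact permutation p = 0.0208, adjusted p = 0.125). Without the 2 rats farthest from the median in liver r was 0.99, and the 48 orders of the 6 remaining rats allow no exact permutation p below 0.0208, which is the value it had. Within the genotypes r was 0.99 in wild-type and 0.88 in SHR-Tti2+/- rats. With each rat left out in turn r stayed between 0.76 and 0.93. The exact permutation p was then between 0.00694 and 0.0417 before adjustment, where 0.00694 is the smallest that 7 rats allow, and its adjusted value passed in 3 of 8 cases. The others were wild-type rats 4, 5 and 6 and SHR-Tti2+/- rats 2 and 6, without which the adjusted p was between 0.125 and 0.25 (exact permutation). On log2(TPM + 0.5) r was 0.75 and did not pass (exact permutation, adjusted p = 0.0938).

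**Figure D3:**
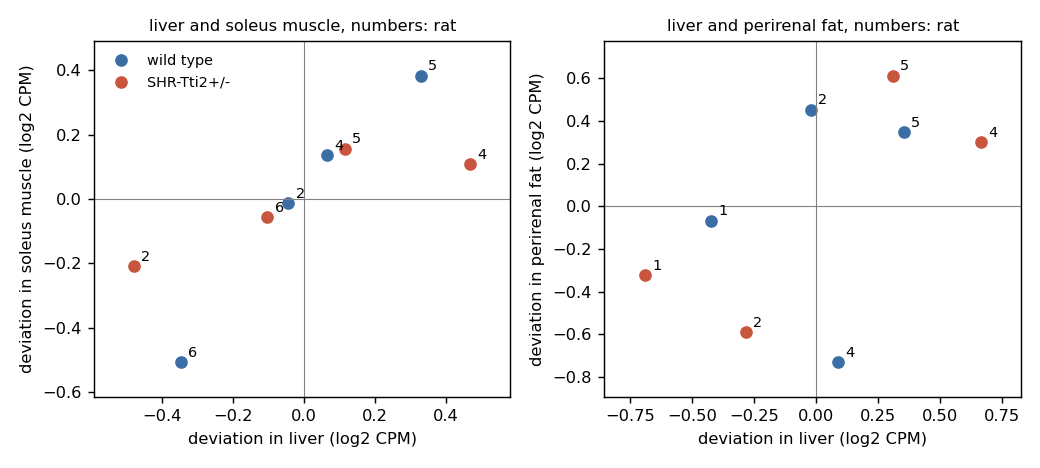
Deviation of log2 CPM of ENSRNOT00000028546.5 from the genotype mean of the rats shown, liver on the horizontal axis against soleus muscle (left) and perirenal fat (right), each point 1 rat labelled by its number and coloured by genotype. All 8 rats lie on the same side of 0 on both axes for liver and muscle, and 6 of 8 do so for liver and fat.

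The other tissue pairs gave weaker relations that did not pass. Liver and fat correlated with r = 0.54 and rho = 0.43 over 8 rats (exact permutation p = 0.200 and 0.330, adjusted p = 0.385 and 0.495), and with the 2 outermost rats removed r was 0.49. Muscle and fat gave r = 0.53 and rho = 0.52 (exact permutation p = 0.257 and 0.226, adjusted p = 0.385 and 0.451). That value moved both ways with single animals. It rose to 0.91 without wild-type rat 2 (exact permutation, adjusted p = 0.0417) and fell to 0.29 without SHR-Tti2+/- rat 2. Without the 2 rats outermost in muscle r was 0.93. Liver and hippocampus gave r = 0.38 and rho = 0.50 (exact permutation p = 0.253 and 0.177, adjusted p = 0.385 and 0.451), with r = 0.26 without the 2 rats outermost in liver and r = 0.77 without wild-type rat 2 (exact permutation, adjusted p = 0.181). Fat and hippocampus gave r = 0.16 and rho = 0.18 over 9 rats (exact permutation p = 0.587 and 0.632, adjusted p = 0.705 and 0.670), with r = 0.34 without the 2 rats outermost in fat. For muscle and hippocampus no stable sign was found, with r = 0.02 and rho = -0.21 (exact permutation p = 0.951 and 0.670, also after adjustment) but r = -0.96 once the 2 rats outermost in muscle were removed. With all rats kept, liver and muscle was the only pair of the 6 that passed, and it did so by Pearson r on log2 CPM. No pair passed by Spearman's rho or on log2(TPM + 0.5). How many other transcripts agree as closely between liver and muscle is not given.

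Some animals stood to one side in all their tissues. SHR-Tti2+/- rat 4 was above the mean of its group in 4 of 4 tissues, by 0.29 in log2 CPM on average, and wild-type rat 5 was above it in 4 of 4, by 0.24. SHR-Tti2+/- rat 1 was below the mean in all 3 of its tissues, at -0.38 on average, as were wild-type rat 6 at -0.35 and wild-type rat 1 at -0.20. Wild-type rat 4 behaved differently, with the lowest fat sample of its group, 0.83 below the mean, and values above the mean in its 2 other tissues. With 3 or 4 tissues each, some rats would lie on one side by chance, and how many do so for other transcripts is not given. Weight, litter and time of sampling of the rats were not used here.

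Among the other transcripts, those that rose and fell with ENSRNOT00000028546.5 between rats of one genotype were sought in each tissue, by the Pearson r of the same kind of deviations over 10 samples. These correlations describe 10 libraries each and carry no test. At r of 0.9 or more there were 23 transcripts in liver, 8 in soleus, 68 in fat and 244 in hippocampus. For a typical tested transcript, the median number at that level was 10 in liver, 11 in soleus, 12 in fat and 15 in hippocampus. The number was therefore above the median in liver, fat and hippocampus, where 87.1%, 88.0% and 85.2% of tested transcripts had fewer, and below it in soleus, where 31.7% had fewer. In the hippocampus it rested on wild-type rat 2: without that sample 12 transcripts reached r of 0.9, and only 7 of the 50 most alike were still among the 50 most alike.

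In liver, the 50 transcripts most alike tended to be higher in SHR-Tti2+/- rats as well. Of these 50, 37 (74%) had a higher level in SHR-Tti2+/- liver, with a median log2 fold change of 0.05, whereas 50.2% of all tested liver transcripts did. Of the 50 most opposite, 20 (40%) were higher, with a median of -0.11. On log2(TPM + 0.5) the share among the 50 most alike in liver was 58%. The lean in liver is only a description, since ENSRNOT00000028546.5 was chosen by its difference in these same livers and the 50 vary with it. In soleus the 50 most alike lay near the background, with 54% higher against 49.0% of all. In fat 36% of the 50 most alike and 70% of the 50 most opposite were higher in SHR-Tti2+/- rats, against 49.0% of all. Their median log2 fold changes were small, at -0.03 and 0.07. Over the other settings the share among those most alike ran from 26% to 45%. The lean was opposite in sign to the transcript's own difference in fat, which did not pass the test. It is only a description, since the 50 vary together. In hippocampus 6% of the 50 most alike were higher, against 50.1% of all, and the share was 50% among the 50 most alike without wild-type rat 2.

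The liver transcript most alike was ENSRNOT00000018795.3, 1268 bases long, with r = 0.96, from 0.94 to 0.97 as each sample was left out. Its level in wild-type liver was 109 CPM in rat 1, 120 in rat 2, 129 in rat 4, 154 in rat 5 and 118 in rat 6. In SHR-Tti2+/- liver it was 256 CPM in rat 1, 294 in rat 2, 583 in rat 4, 454 in rat 5 and 423 in rat 6. The order of the SHR-Tti2+/- rats, from rat 1 at the bottom through rats 2, 6 and 5 to rat 4 at the top, was the order seen for ENSRNOT00000028546.5. That match is no separate result, since ENSRNOT00000018795.3 was chosen by its r over these same livers. The genotype difference did not enter the calculation of r. It passed the test in liver (log2 fold change 1.67, standard error 0.21, adjusted p = 0.0305, edgeR with Benjamini-Hochberg adjustment). That is no separate support, since the likeness was to a transcript chosen by its difference in these same livers. ENSRNOT00000018795.3 was largely a liver transcript in these data. In fat it stayed under 1 CPM in all samples, with r = -0.15, and in soleus and hippocampus it did not reach the minimum count.

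The other 3 transcripts at the ends of the liver and soleus lists had no genotype difference that passed in the tissue where they were found. The most opposite in liver, ENSRNOT00000030370.5 of 2565 bases, had r = -0.97 and between 6.67 and 8.97 CPM in all livers, with a log2 fold change of 0.07 (adjusted p = 0.857, edgeR). The most alike in soleus, ENSRNOT00000085408.1 of 483 bases, had r = 0.94, a level of 484 ± 62.4 CPM in wild-type (SD, n = 5) and 549 ± 30.4 CPM in SHR-Tti2+/- rats (SD, n = 5), and a log2 fold change of 0.18 (adjusted p = 0.733, edgeR). The most opposite in soleus, ENSRNOT00000089981.1 of 1773 bases, had r = -0.95 at a low level between 0.96 and 2.60 CPM, with a log2 fold change of 0.07 (adjusted p = 0.972, edgeR).

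The lists of 50 hardly met between tissues. Liver and fat shared 2 of 50, or 4% of each list, muscle and fat shared 2, fat and hippocampus shared 1, and the other pairs shared 0. The 50 most opposite shared 0 in every pair of tissues. The 50 most alike in liver had a median r of 0.02 in soleus and -0.07 in fat, so the likeness in liver was on the whole not seen in those tissues. The 50 most alike in soleus and in fat each had a median r of 0.24 in the other of these 2 tissues.

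An exception was ENSRNOT00000091597.1, a transcript of 1249 bases that was picked out after its values were seen. Of 16066 other transcripts tested in liver, soleus and fat alike, it had the largest smallest r over the 3 tissues, at 0.84, with the next at 0.76. Its r was 0.84 in liver, 0.93 in soleus, 0.96 in fat and 0.24 in hippocampus. The log2 fold change between the genotypes was 2.37 (standard error 0.33) in liver and 0.56 (standard error 0.20) in muscle. The liver value was among those called by edgeR (adjusted p = 0.0321), which is no support here since the transcript was picked with its values in view. The log2 fold change was 0.60 (standard error 0.31) in fat and -0.14 (standard error 0.16) in hippocampus.

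**Figure D4:**
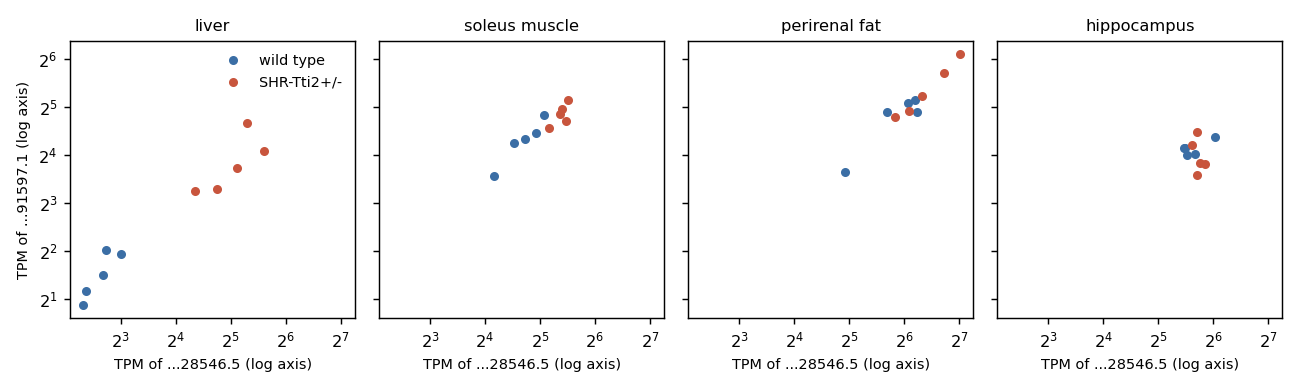
Deposited TPM of ENSRNOT00000091597.1 (vertical, log axis) against that of ENSRNOT00000028546.5 (horizontal, log axis) in the 10 samples of each tissue, coloured by genotype. The points rise together in liver, soleus muscle and perirenal fat, with within-genotype r of 0.84, 0.93 and 0.96, and scatter without such a rise in hippocampus, with r of 0.24.

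The level of ENSRNOT00000091597.1 was below that of ENSRNOT00000028546.5 in every sample, by a proportion that varied with tissue. In liver its TPM was 44.1% of that of ENSRNOT00000028546.5 in wild-type rats (median of 5, from 36.8% to 61.3%) and 38.3% in SHR-Tti2+/- rats (from 35.0% to 64.7%). In soleus the medians were 75.4% and 70.3%, in fat 48.0% and 48.2%, and in hippocampus 34.4% and 26.3%. The ranges of the genotypes overlapped in all 4 tissues. Estimated counts divide reads that match several transcripts between them: the count of ENSRNOT00000028546.5 was whole, within 0.01, in 2 of 40 samples and that of ENSRNOT00000091597.1 in 1 of 40, whereas 45.2% of the 12858 transcripts with at least 5 counts in every sample had whole counts in all 40 samples. Whether these 2 transcripts share reads was not tested, since their sequences were not used here. With their counts added together the log2 fold changes were 2.46 in liver, 0.66 in muscle, 0.56 in fat and 0.03 in hippocampus, near those of ENSRNOT00000028546.5 alone in liver, muscle and fat.

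ENSRNOT00000024932.5, of 4997 bases and also picked out after its values were seen, was among the 50 most alike in both liver (r = 0.93) and fat (r = 0.96). Its r was 0.62 in soleus and 0.18 in hippocampus. In liver it had 5.67 ± 2.01 CPM in wild-type (SD, n = 5) and 17.7 ± 6.79 CPM in SHR-Tti2+/- rats (SD, n = 5), a log2 fold change of 1.63 with a standard error of 0.31. In fat, where it was more abundant at 65.1 ± 15.2 and 87.0 ± 19.7 CPM (SD, n = 5 each), the log2 fold change was 0.42. Together with ENSRNOT00000018795.3 it made 2 transcripts called in liver among the 50 most alike there, or 4% of them beside the 0.206% called of all liver transcripts. No enrichment is read from this. The share rests on 2 transcripts, and the 50 were ranked by likeness to a transcript chosen by its difference in the same livers. Among the 50 most alike in soleus, fat and hippocampus, 0 were called.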

How the data were processed

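RNA was sequenced from 40 samples, 5 per tissue and genotype, grouped by tissue, genotype and rat number in the labels. The authors made poly-A, strand-specific, single-end libraries and quantified them with kallisto (version 0.46.0 in the submitters' processing notes) against Ensembl transcripts with bias correction. The labels name build rn6. The deposited tables hold estimated counts, which need not be whole, and TPM for each transcript, computed by the authors' software. These TPM are relative to the sum over transcripts and so depend on the other transcripts of a tissue. The replicates were separate rats, and in 80 pairs of samples of one group the counts differed by at least 6.38 times the sampling noise (chi-square per degree of freedom), so each library was counted as its own replicate.

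The transcript and the lists were chosen with earlier results of these data known. Rounded counts were fitted in each tissue with edgeR 4.0.16 in R 4.3.3 (TMM, quasi-likelihood, legacy mode, genotype only), for transcripts with at least 5 counts in at least 47% of samples. A call needed a Benjamini-Hochberg adjusted p under 0.1 and 1.5-fold or more between the genotypes. All 10 samples of each tissue were kept, including the hippocampus sample that the authors' methods left out as an outlier. Correlations used log2 CPM with a prior count of 1, in Python 3.11.15 with numpy 2.4.6 and scipy 1.17.1, and exact permutation tests were two-sided over 252 assignments for 5 against 5 samples and over 576 or 2880 orders of rats within genotype. By rule, the transcript itself and those with the highest and lowest r in liver and in soleus were named. ENSRNOT00000091597.1 and ENSRNOT00000024932.5 were named after their values were seen.

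Alternatives were median-of-ratios size factors, DESeq2 1.42.0, limma 3.58.1 on log2(TPM + 0.5), no filter beyond 1 count, at least 10 counts in every sample, a prior count of 5, Spearman's rho, CPM over all 40 samples, the rat number as a block, leaving out each sample singly, and dropping the outermost hippocampus sample. Summed counts with ENSRNOT00000091597.1, DESeq2 without that hippocampus sample and the 50 most alike without it were chosen after seeing the data. The scripts were tested on simulated data. The lists for the TTT complex, the PIKK kinases and tissue markers were not run, since 0 of 31715 identifiers matched a gene name. Estimates of technical variance from the authors' quantification were not used here.

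Rat numbers are no pairing, since they number different animals in the 2 genotypes: over 19 pairs of equal number the deviations of all transcripts correlated between -0.12 and 0.08.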

Additional observations from a re-analysis of the deposited data

Results flagged for a closer look

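In 1 of 8 groups the level of ENSRNOT00000028546.5 had a sample far from the others. It was the wild-type hippocampus, where rat 2 stood at 88.9 CPM, and its distance to the nearest sample was 0.725 of the range of the group. About 1 in 20 groups exceeds the limit for 5 samples by chance. The same sample had the largest library, and its part in the hippocampal values was measured by leaving it out: the log2 fold change moved from 0.07 to 0.20, and the number of transcripts at r of 0.9 or more from 244 to 12.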

How the results depend on the processing

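The log2 fold change kept its sign in all 4 tissues, and no setting gave a call in fat or hippocampus. It ran over the samples left out in turn from 2.30 to 2.63 in liver, 0.58 to 0.78 in muscle, 0.37 to 0.68 in fat and 0.0093 to 0.20 in hippocampus, and over the other settings from 2.31 to 2.48, 0.66 to 0.73, 0.55 to 0.57 and 0.014 to 0.21. Adjusted p ran from 0.620 to 0.951 in fat and from 0.291 to 0.996 in hippocampus (edgeR, DESeq2 and limma). With the rat number as a block the log2 fold change was 2.44, 0.73, 0.55 and 0.014 in liver, muscle, fat and hippocampus. No call changed in fat or hippocampus, the tissues with a test. In that check 6 of 19 pairs correlated best with their own number.

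Hippocampus minus muscle turned to -0.74 (wild type) and -1.38 (SHR-Tti2+/-) with CPM over all 40 samples. Over samples left out, fat minus hippocampus in wild-type rats ran from 0.084 to 0.41 and passed at 0.41 without fat rat 4, and muscle minus liver in SHR-Tti2+/- rats ran from 0.19 to 0.50, the latter without liver rat 4. Agreement of liver and muscle did not pass at r = 0.75 on log2(TPM + 0.5). Without the 2 rats outermost in liver r was 0.99, at the smallest p that 6 rats allow, so that p says nothing about stability. Over rats left out r ran from 0.76 to 0.93 and passed in 3 of 8 cases. Over rats left out, r of liver and hippocampus ran from 0.31 to 0.77, that of muscle and fat from 0.29 to 0.91, and that of muscle and hippocampus from -0.69, without wild-type rat 6, to 0.37. The last was -0.96 without the 2 rats outermost in muscle.

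The count of transcripts at r of 0.9 or more moved by over 1.5 times in every tissue. By Spearman's rho it was 37 in liver, 4 in muscle, 153 in fat and 13 in hippocampus, and on log2(TPM + 0.5) it was 6, 5, 138 and 86. Over samples left out it ran from 23 to 58, from 15 to 30, from 72 to 157 and from 12 to 597, the lowest hippocampal value without wild-type rat 2 and the highest without wild-type rat 5. A fixed r is reached more easily with fewer samples, so the counts with a sample left out cannot be set directly against the main ones. The causes of these changes were not tested. The smallest estimated count of the transcript was 217, and how many of its reads match it alone is not given.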
